A study of Mus musculus with 8 samples.

Results

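Axon guidance ligands and receptors were examined in sorted cochlear hair cells of mice with and without Ndp, the gene of norrin, a secreted Wnt pathway ligand. The genes were taken by name from the deposited table, as its protein-coding ephrins, Eph receptors, semaphorins of classes 3 to 7, plexins, neuropilins, Slits, Robos, netrins, Unc5 receptors and Dcc. The rule found 66 genes among 25343, and 63 of them reached the minimum for a test, which was 10 or more normalized counts in 4 or more of the 8 libraries. Normalized counts are the authors' reads per gene divided by 1 size factor per library. The rule selects by name and uses no measured value, though this group of genes was taken up with earlier results of these data known.

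The series held 4 wild-type and 4 Ndp knockout libraries. Mice of both groups were on a mixed C57BL/6 and 129 background and were between postnatal days 4 and 6. Each library came from a tube of 12 to 20 cochlear sensory epithelia, from which Atoh1-GFP-positive cells were sorted in both groups, Atoh1-GFP being a reporter of the hair cell transcription factor Atoh1. The labels do not say how mice or litters were divided among the tubes, so p-values measure only how these tubes differ, and part of that may be technical. RNA was pooled over cells, so fewer cells of a type and less RNA per cell cannot be told apart.

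Libraries held between 35077950 and 48329827 reads. Ndp itself, read first as a check of the labels, had 174, 90.4, 114 and 206 normalized counts in wild-type replicates 1 to 4 and 10.5, 22.6, 66.8 and 45.1 in knockout replicates 1 to 4. The genotypes did not overlap, and Ndp was not at 0 in any knockout library. The 10 hair cell markers checked (Pou4f3, Gfi1, Myo7a and others) were present in every library, with summed levels of 171505 to 265322 normalized counts in the wild type and 214207 to 241186 in the knockout. Markers of other cell types were present too. The 10 supporting cell markers summed to 94932 to 145299 and 118084 to 141992, and the 10 spiral ganglion neuron markers to 61416 to 69888 and 60967 to 65536, with Prph at 0 in at least 1 library. The 10 Schwann cell and glia markers summed to 15969 to 21805 and 13449 to 24602, and the 10 mesenchyme and fibrocyte markers to 18048 to 26003 and 19422 to 37451. The log2 difference (knockout minus wild type) was positive for 4 and negative for 6 of the 10 supporting cell markers, with a median of -0.21. It was positive for 7 of 10 hair cell markers (median 0.13), 7 of 9 tested neuron markers (0.10) and 5 of 10 glia markers (0.11). Directions of the mesenchyme, endothelial and macrophage markers are given below. In the limma fit described below, 3 supporting cell, 1 hair cell, 2 neuron and 0 glia markers had an unadjusted p under 0.05. So did 3 mesenchyme, 1 endothelial and 4 macrophage markers, beside 5.57% of all genes tested. Which of these cells the reads of a guidance gene came from was not tested.

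Axon guidance genes encode cues on cell surfaces or in the extracellular space and the receptors that read them. Ephrins bind Eph receptor tyrosine kinases between touching cells, class 3 semaphorins are secreted and bind neuropilin and plexin complexes, the other semaphorins are mostly membrane-bound and bind plexins directly, Slits bind Robos, and netrins bind Dcc and Unc5 receptors. In the cochlea such cues are known for steering spiral ganglion neurites toward inner or outer hair cells, and several of the same families act in blood vessels, the tissue in which norrin is best known.

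Sequence upstream of 4 members is shown because 3 of them (Ephb1, Unc5b and Efna4) were among the members lower in the knockout at an unadjusted p under 0.05, and because the fourth, Nrp2, was the member whose promoter held a TCF/LEF motif, the site class through which Wnt signalling reaches DNA. The sequences are those of RefSeq on the mouse build GRCm38.p6, which matched 56 of the 66 members. Each run ends at the base before the gene's start in the deposited table, reads 5′ to 3′ on the gene's strand and is 250 bases long, or 218 for Nrp2. Capitals mark the motifs searched on both strands, CTTTGAT for TCF/LEF and GGGCGG for the GC box, a site class of Sp1-type factors. The intervals are chr9:102354694-102354943 on the minus strand for Ephb1, chr10:60831582-60831831 on the minus strand for Unc5b, chr3:89338029-89338278 on the minus strand for Efna4 and chr1:62703067-62703284 on the plus strand for Nrp2.
Ephb1: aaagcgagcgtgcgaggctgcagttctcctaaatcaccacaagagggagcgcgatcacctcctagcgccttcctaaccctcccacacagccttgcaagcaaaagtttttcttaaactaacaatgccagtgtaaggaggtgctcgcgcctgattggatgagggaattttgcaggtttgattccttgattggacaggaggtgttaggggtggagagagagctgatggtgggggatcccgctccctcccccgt
Unc5b: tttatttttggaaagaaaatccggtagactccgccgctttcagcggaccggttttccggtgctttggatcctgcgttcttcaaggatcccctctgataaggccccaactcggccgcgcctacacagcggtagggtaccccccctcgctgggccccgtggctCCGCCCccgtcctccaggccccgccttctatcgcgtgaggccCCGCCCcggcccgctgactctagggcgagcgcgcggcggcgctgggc
Efna4: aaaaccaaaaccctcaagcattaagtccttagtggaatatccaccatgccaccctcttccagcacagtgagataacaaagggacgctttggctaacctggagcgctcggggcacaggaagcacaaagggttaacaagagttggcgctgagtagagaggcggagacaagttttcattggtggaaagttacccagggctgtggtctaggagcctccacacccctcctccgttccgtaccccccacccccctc
Nrp2: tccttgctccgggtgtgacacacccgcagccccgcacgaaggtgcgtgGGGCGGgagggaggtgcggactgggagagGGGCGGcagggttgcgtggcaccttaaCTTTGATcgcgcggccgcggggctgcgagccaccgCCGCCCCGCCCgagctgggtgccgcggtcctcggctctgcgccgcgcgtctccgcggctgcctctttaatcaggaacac

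In these runs Ephb1 and Efna4 held 0 matches to either motif, Unc5b held 2 GC boxes, and Nrp2 held 4 GC boxes and 1 TCF/LEF match. Over the full 300-base windows of RefSeq, which reach past the start, CTTTGAT stood in 3.73% of 32851 promoters of the table and in 1 of the 72 promoters of the 56 matched members. GGGCGG stood in 35.7% of all these promoters and in 51 of the 72 promoters of matched members, some of which have more than 1. A match describes letters and not a bound site, and its absence from a window says nothing of the factor.

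The levels of these genes ranged widely. In every library 22 of the 66 members had at least 1000 normalized counts and 46 had more than 100. Only 5 had 0 reads in at least 1 library. Levels of different genes were compared per kb of exon, taking the union of a gene's annotated exons. The highest level belonged to Sema5b, a membrane semaphorin that binds class A plexins, with 2439.8 ± 884 normalized counts per kb across the wild-type libraries and 2496 ± 83.8 across the knockout libraries (mean ± SD of 4 libraries, as for all such values). Plxnb2, a receptor of class 4 semaphorins, followed with 1043 ± 326 and 988 ± 170.4 per kb. Sema6b, at 786 ± 252 and 1077 ± 189.7, did not differ from Plxnb2 beyond the spread between libraries. Ephb6, an Eph receptor without kinase activity, stood at 948 ± 489 and 798 ± 152 per kb in the wild type and the knockout. The ephrins Efna5 and Efna1, the semaphorin co-receptor Nrp2 and its secreted ligand Sema3f came next, with wild-type means of 686, 656, 653 and 622 per kb that differed by less than their SDs.

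**Figure D1:**
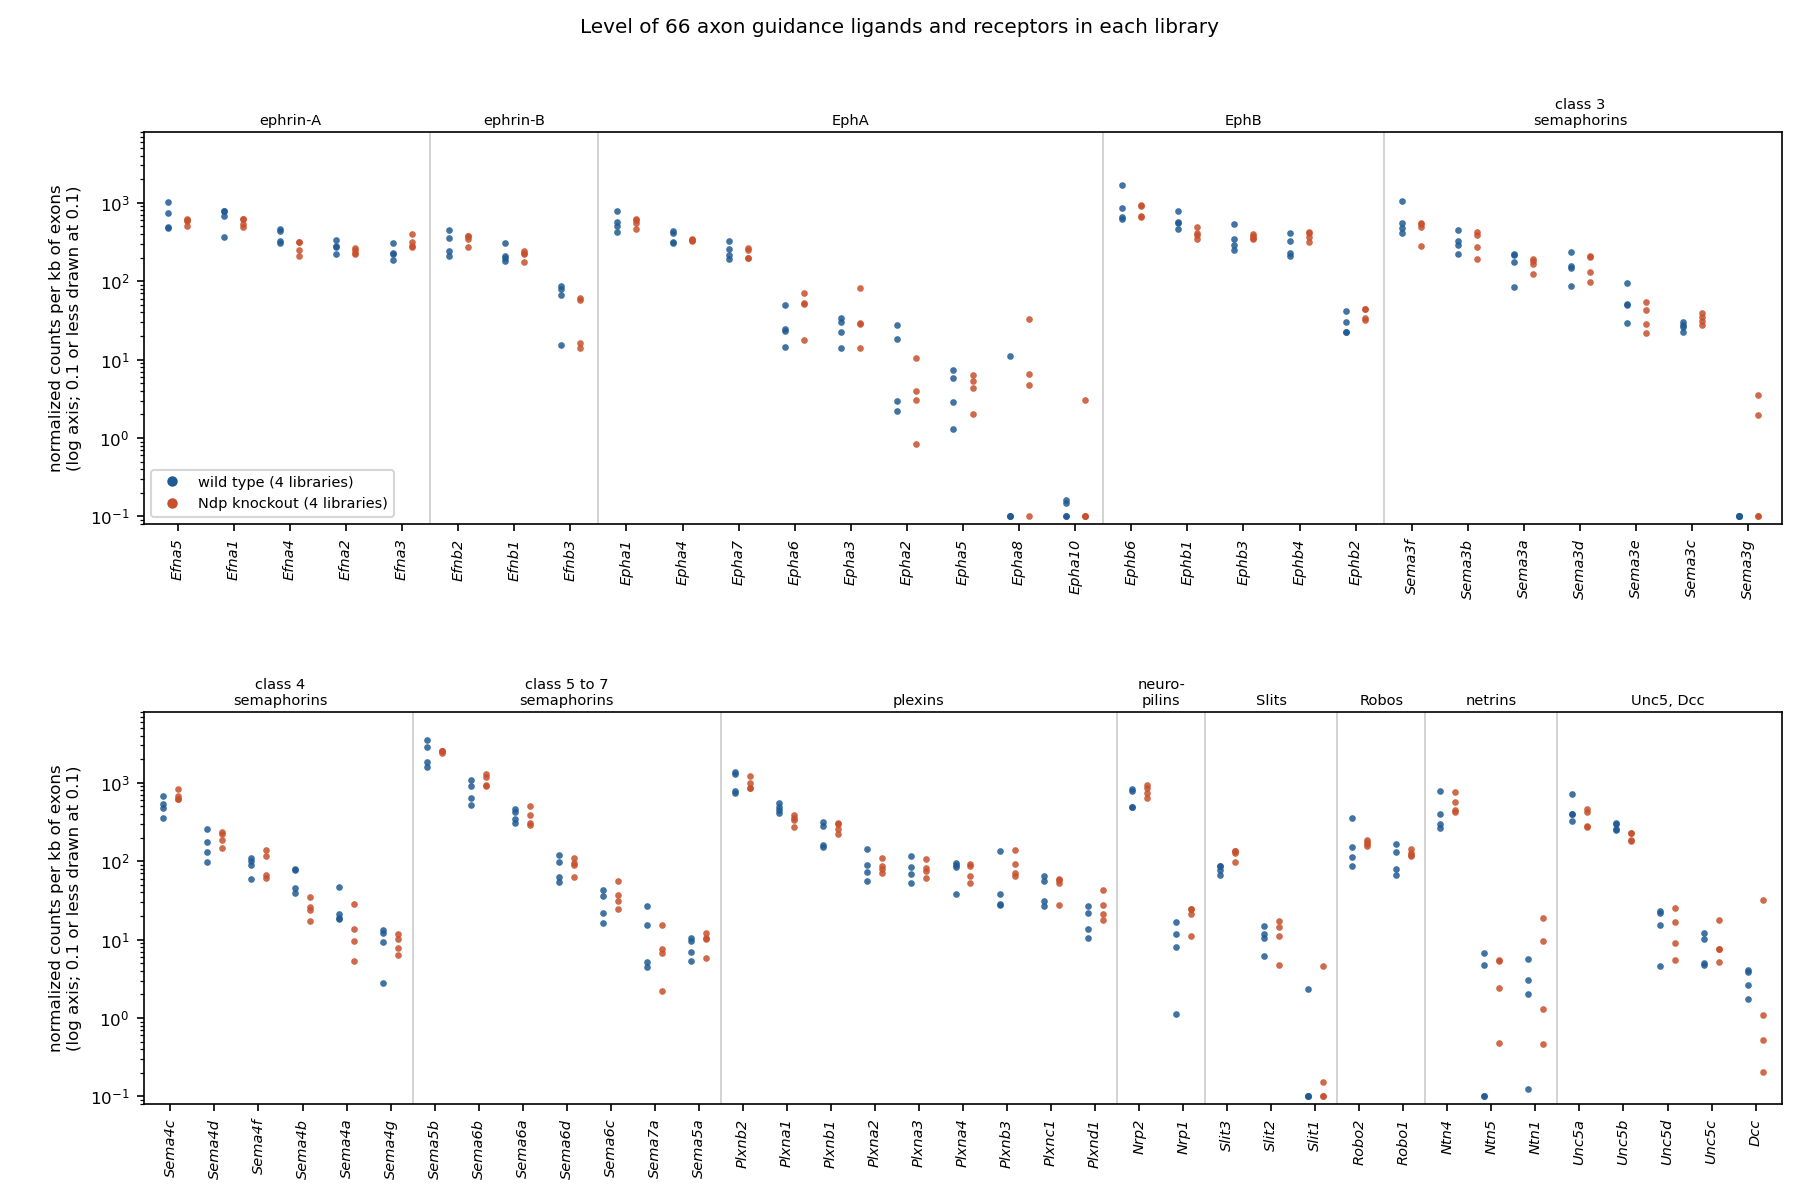
Level of each of the 66 members in normalized counts per kb of exon on a log axis, 1 point per library, wild type in blue and Ndp knockout in red, ordered within each family by the wild-type mean. Sema5b is highest at 2439.8 per kb in the wild type, Epha10, Sema3g and Slit1 are at or near 0 in most libraries, and the points of both genotypes overlap for most genes.

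The families differed in how their level was spread over members. By the sum of their members per kb, semaphorins of classes 5 to 7 were highest, at 3749.7 ± 1225 in the wild type and 4088 ± 211 in the knockout, and Sema5b made up most of it. Ephrin-A ligands summed to 2239 ± 223 and 1978 ± 121 per kb, EphB receptors to 2218 ± 814 and 1993 ± 135, and plexins to 2119 ± 458 and 2008 ± 244. EphA receptors (1258 ± 176 and 1228 ± 39.6) and class 3 semaphorins (1357 ± 482 and 1178 ± 135) were lower. Slits were the lowest family at 90.7 ± 11.6 and 138 ± 16.0 per kb, while their receptors Robo1 and Robo2 together gave 288 ± 150.1 and 297 ± 9.73. Summed over all 66 members, the level was 16656 ± 3458 per kb in the wild type and 16515 ± 487 in the knockout. The knockout libraries lay at 15943 to 16975 per kb, inside the wild-type range of 13013 to 20451.

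The other 3 members did not reach the minimum for a test. Sema3g, a secreted semaphorin, was listed at 0 in all wild-type libraries and had 15.8 and 9.02 normalized counts in knockout replicates 1 and 3, where 3 reads are worth up to 3.16 normalized counts. Epha10 reached 21.7 in knockout replicate 3 and at most 1.16 elsewhere. Slit1 had 14.0 in wild-type replicate 4 and 27.5 in knockout replicate 4, and less than 1 in the other libraries.

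The genotypes were compared with limma on log2(normalized count + 1), fitted over all 18203 genes that reached the minimum, with p-values adjusted by Benjamini-Hochberg over all of them. At an adjusted p under 0.05, limma called 0 of the 63 members, against 0.00549% of all genes tested (1 gene), and the lowest adjusted p of a member was 0.895. Ndp itself, with a log2 difference of -2.20 (SE 0.56, knockout minus wild type), had a limma adjusted p of 0.895 and was not called either. The quasi-likelihood test of edgeR, run on recovered reads, called 0 members and 0.0% of genes, with a lowest adjusted p of 0.996, and DESeq2 called 0 of 65 members and 0.136% of genes, with a lowest adjusted p of 0.112. In the authors' deposited table no member had an adjusted p under 0.05, and Dcc had no p there. Differences between the genotypes are therefore given with an interval, a standard error or the spread between libraries, and not as changes.

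At an unadjusted p under 0.05, limma gave 2 members higher in the knockout, where 3.1% of all genes were, and 5 lower, where 2.47% of all genes were. These were Slit3 and Sema4c on the higher side and Sema4b, Plxna1, Ephb1, Unc5b and Efna4 on the lower. Together they were 11.1% of the members tested, beside 5.57% of all genes. edgeR gave 6 members at an unadjusted p under 0.05 (4.55% of genes) and DESeq2 gave 7 (6.09%). Every knockout library was above every wild-type library for 1 member, Slit3 (1.46% of all genes), and below for 3, Sema4b, Plxna1 and Unc5b (1.58%). The log2 difference was above 0 for 38 of the 63 members and below 0 for 25, a share of 60.3% above 0 beside 52.5% of all genes. Their median log2 difference was 0.06, beside 0.02 over all genes.

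**Figure D2:**
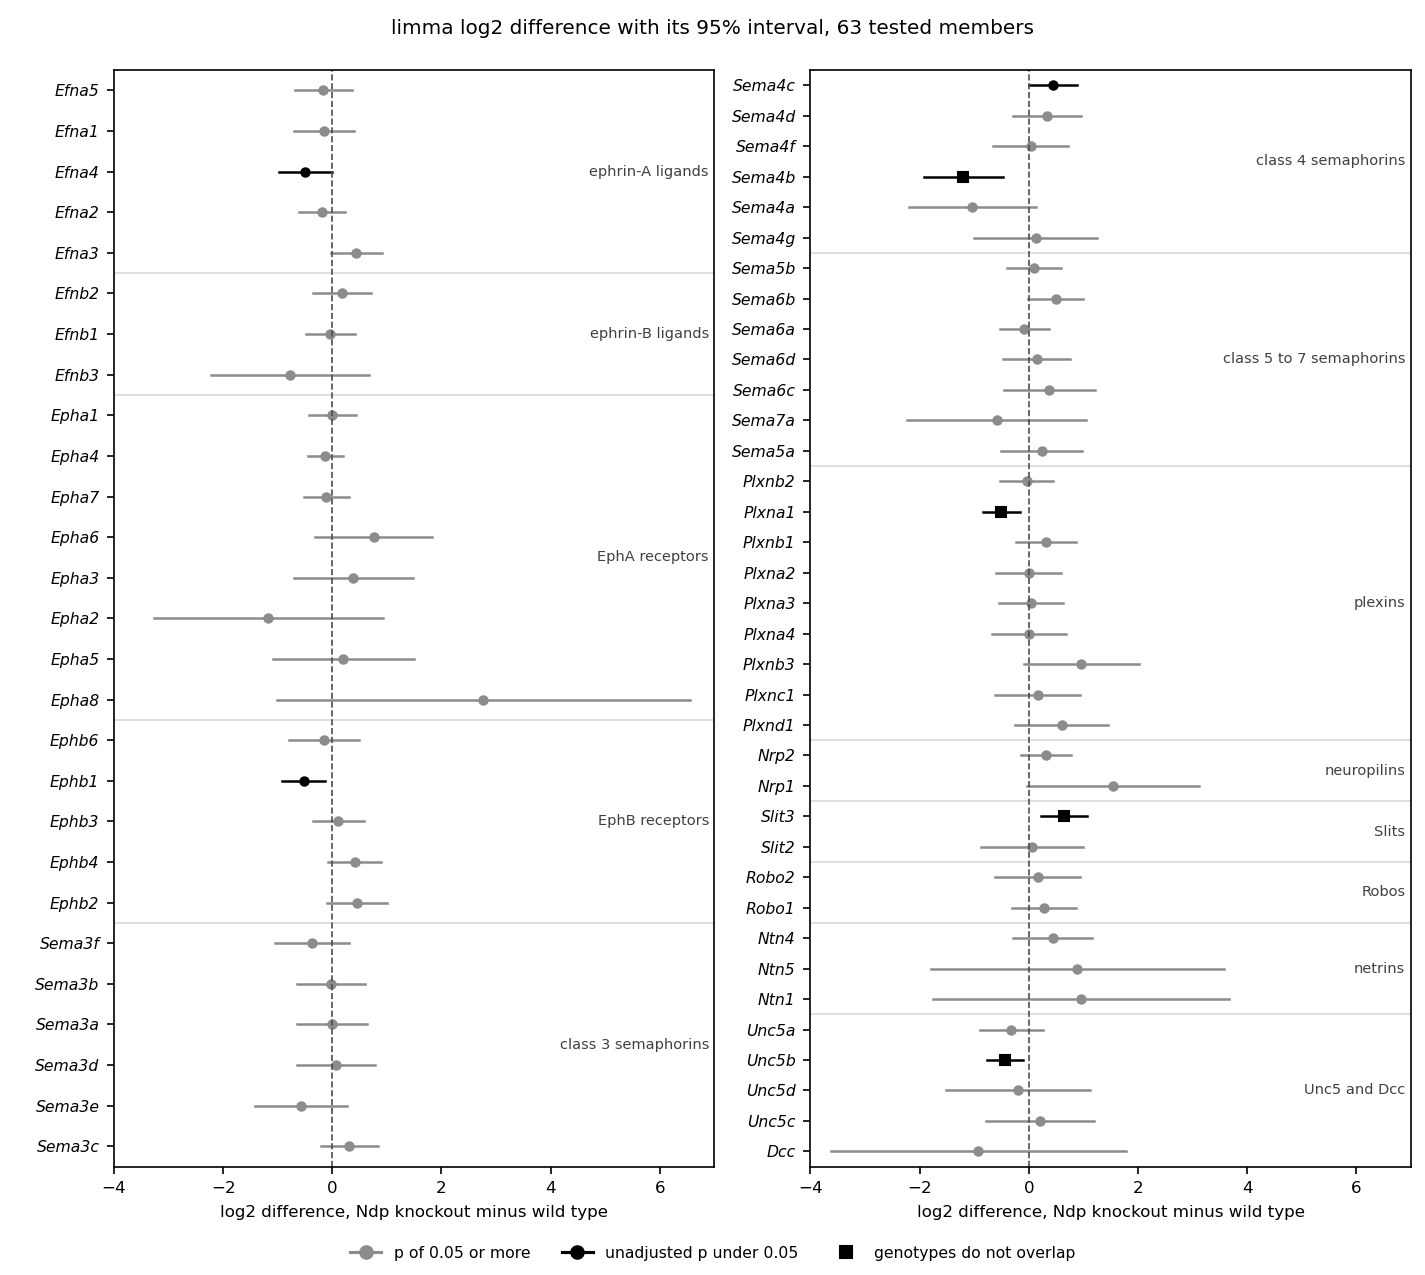
Log2 difference (knockout minus wild type, log2 of normalized count plus 1) of the 63 tested members by family, with the 95% interval of limma's moderated fit; black marks an unadjusted p under 0.05 and squares mark members whose genotypes do not overlap. The 7 black intervals exclude 0, and 56 intervals include it, the widest being those of genes with few reads such as Epha8.

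Among the semaphorins, Sema4b, a membrane-bound class 4 semaphorin (chr7:80186841-80226527, plus strand), had the lowest p of all members. It had 442, 256, 219 and 444 normalized counts in wild-type replicates 1 to 4 and 98.0, 149, 136 and 196 in knockout replicates 1 to 4. All knockout libraries lay below all wild-type libraries, and wild-type replicates 1 and 4 were higher than 2 and 3. Its log2 difference was -1.20 (SE 0.33, 95% interval -1.92 to -0.47, limma, adjusted p = 0.895). In the authors' deposited table the unshrunken log2 difference of Sema4b was -1.23 with an adjusted p of 0.112.

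Sema4c, a class 4 semaphorin that binds Plxnb2, went the other way. Wild-type replicates 1 to 4 had 1656, 3101, 2502 and 2223 normalized counts, and knockout replicates 1 to 4 had 3087, 2888, 3814 and 2884. Wild-type replicate 2 was above 3 of the knockout libraries, so the genotypes overlapped. Sema4c had a log2 difference of 0.44 (SE 0.20, 95% interval 0.01 to 0.88, limma, adjusted p = 0.895). Its unadjusted p stayed under 0.05 in 1 of the 8 fits that left out 1 library, the one without wild-type replicate 2, and the difference was 0.28 without wild-type replicate 1. Its receptor Plxnb2 had 8055 ± 2517 normalized counts in the wild type and 7628 ± 1315 in the knockout.

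Of the other class 4 semaphorins, Sema4a had 103, 256.5, 98.2 and 116 normalized counts in wild-type replicates 1 to 4 and 51.7, 155, 73.1 and 28.6 in the knockout replicates. The genotypes overlapped, with wild-type replicate 2 far above the rest, and the log2 difference was -1.03 (SE 0.53, 95% interval -2.19 to 0.13), or -0.65 without knockout replicate 4. Sema4d, which binds Plxnb1, had 1273 ± 535 normalized counts in the wild type and 1524 ± 305 in the knockout. In all, 4 of the 6 class 4 members had positive and 2 negative differences.

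Among semaphorins of classes 5 to 7, Sema5b had 12886, 20248, 24625 and 11336 normalized counts in wild-type replicates 1 to 4 but only 16811 to 18151 across the knockout libraries. The knockout values sat inside the wild-type range, between the low pair of replicates 1 and 4 and the high pair of replicates 2 and 3. Sema6b, a membrane semaphorin that binds class A plexins, had 2546, 3612, 4261 and 2060.2 normalized counts in the wild type and 4689, 3587, 5121 and 3692 in the knockout. All 4 knockout libraries were above the wild-type mean of 3119.7, though the ranges overlapped, and the log2 difference was 0.49 (SE 0.23, 95% interval -0.01 to 1.00, limma, adjusted p = 0.899). It was 0.31 without wild-type replicate 4. Sema6c, of the same class, had 173 ± 72.1 and 221 ± 81.6 normalized counts.

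The secreted class 3 semaphorins gave 0 members at an unadjusted p under 0.05. Sema3f, the ligand of Nrp2, had 3233 ± 1563 normalized counts in the wild type and 2399.8 ± 644 in the knockout, with wild-type replicate 2 at 5535. Sema3a, the ligand of Nrp1, had 2425 ± 886 and 2277 ± 408. Sema3e, which binds Plxnd1 without a neuropilin, had 468, 476, 872 and 269.7 normalized counts in wild-type replicates 1 to 4 and 200.3, 393, 263 and 510.3 in knockout replicates 1 to 4. These ranges overlapped, and the log2 difference was -0.57 (SE 0.38, 95% interval -1.42 to 0.28). It was -0.29 without wild-type replicate 3 and -0.35 without knockout replicate 1. Sema3c had a narrow spread, at 189 ± 24.7 and 236 ± 35.2 normalized counts.

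Among the semaphorin receptors, Plxna1, the plexin through which class 3, 5 and 6 semaphorins can signal (chr6:89316314-89362620, minus strand), was lower in every knockout library. Wild-type replicates 1 to 4 had 4462, 3724, 4064 and 5063 normalized counts and knockout replicates 1 to 4 had 3195, 2479, 3040.5 and 3499. The lowest wild-type library was above the highest knockout library by less than the spread within either genotype. Plxna1 had a log2 difference of -0.51 (SE 0.15, 95% interval -0.84 to -0.17, limma, adjusted p = 0.895). The other class A plexins had similar means in both genotypes, with 1560.4 ± 652 and 1490.2 ± 289 normalized counts for Plxna2, 638 ± 216 and 640.4 ± 146 for Plxna3 and 1080.5 ± 369 and 1048 ± 264 for Plxna4. Whether Plxna1 differed from them in response was not tested.

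Plxnb3, a plexin known as a receptor of Sema5a, had 249, 869.9, 187 and 179 normalized counts in wild-type replicates 1 to 4 and 599, 466, 916 and 416 in knockout replicates 1 to 4. Apart from wild-type replicate 2, every wild-type library was below every knockout library. The log2 difference was 0.96 (SE 0.48, 95% interval -0.09 to 2.02, limma, adjusted p = 0.903), or 1.49 without wild-type replicate 2 and 1.59 without both replicates 2.

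The neuropilins stood at very different levels, 653 ± 185 normalized counts per kb in the wild type for Nrp2 and 9.38 ± 6.53 for Nrp1. Nrp2 had 5854, 9914, 9320.1 and 5839 normalized counts in wild-type replicates 1 to 4 and 10109, 7617, 11029 and 8855 in knockout replicates 1 to 4. The wild type fell into a low pair (1 and 4) and a high pair (2 and 3) that reached into the knockout range, and the log2 difference was 0.31 (SE 0.21, 95% interval -0.14 to 0.77). It was 0.19 without wild-type replicate 1 or 4 and 0.54 without both replicates 2.

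Nrp1, a co-receptor of class 3 semaphorins and of VEGF in vessels, had 163, 11.0, 115 and 79.1 normalized counts in wild-type replicates 1 to 4 and 206, 108, 238 and 239.8 in knockout replicates 1 to 4. Its log2 difference was 1.54 (SE 0.71, 95% interval -0.04 to 3.12, limma, adjusted p = 0.899), and wild-type replicate 2 was the lowest library by far. Without that library the log2 difference of Nrp1 was 0.72, and without both replicates 2 it was 0.99. Nrp1 is also made by endothelial cells and macrophages, whose markers were on the same side. Of 7 tested endothelial markers 6 had positive differences, with a median log2 difference of 1.13 and summed levels of 2695 to 4331 normalized counts in the wild type and 3063 to 4472 in the knockout. Of the 8 endothelial markers in the table, Esam, Flt1 and Tek were at 0 in at least 1 library. Of 10 macrophage markers 9 had positive differences, with a median of 1.65 and sums of 2097 to 4852 and 3668 to 5811, and Ptprc was at 0 in at least 1 library. The part of these cells in the Nrp1 difference was not tested.

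Among Slits and Robos, Slit3, a secreted Robo ligand (chr11:35121224-35708507, plus strand), was the member whose knockout libraries were all above the wild type. It had 527, 520.3, 476 and 401 normalized counts in wild-type replicates 1 to 4 and 590.4, 784, 826 and 825 in knockout replicates 1 to 4. Knockout replicate 1 lay close to the wild-type range, and the other knockout libraries lay within a narrow band. For Slit3 the log2 difference was 0.65 (SE 0.19, 95% interval 0.23 to 1.07, limma, adjusted p = 0.895). In the authors' deposited table the unshrunken log2 difference of Slit3 was 0.65 with an adjusted p of 0.113. Slit3 is known from mesenchymal cells as well, and of 10 mesenchyme and fibrocyte markers 7 had positive differences with a median of 0.64. Knockout replicate 4 held the highest sum of these markers, 37451 normalized counts, beside at most 22012 in the other knockout libraries. Slit3 stood at 825 normalized counts in knockout replicate 4 and at 590.4 to 826 in the other knockout libraries. Their part in the Slit3 difference was not tested.

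Slit2 had 276 ± 94.2 normalized counts in the wild type and 303 ± 139.6 in the knockout. The receptor Robo1 had 1837 ± 773 and 2092 ± 211. Robo2 had 1911, 2585, 6028 and 1494 normalized counts in wild-type replicates 1 to 4, and 2643 to 3124 across the knockout libraries. A single wild-type library, replicate 3, set the wild-type mean of Robo2 above the knockout mean, while its log2 difference was positive.

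Among netrin receptors, Unc5b, a netrin receptor also known from blood vessels (chr10:60762593-60831581, minus strand), was lower in every knockout library. It had 1921, 1545, 1857 and 1610.3 normalized counts in wild-type replicates 1 to 4 and 1417, 1127, 1183 and 1417 in knockout replicates 1 to 4. The genotypes did not overlap, and both had small spreads. For Unc5b the log2 difference was -0.43 (SE 0.15, 95% interval -0.77 to -0.10, limma, adjusted p = 0.895), and the p was above 0.05 without knockout replicate 2. Unc5a had 1921 ± 719 and 1509.9 ± 396 normalized counts. Dcc, the receptor of attraction by netrin, had 23.2 to 53.8 normalized counts in the wild type and 2.71, 6.87, 14.3 and 428 in the knockout, the highest value being that of replicate 1.

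The ligand with the highest level among the netrins was Ntn4, a basement membrane netrin, with 1502, 2912, 979 and 1127 normalized counts in wild-type replicates 1 to 4 and 2149.6, 1684, 2873 and 1567 in knockout replicates 1 to 4. The ranges overlapped through wild-type replicate 2, and the log2 difference was 0.44 (SE 0.32, 95% interval -0.28 to 1.16). It was 0.76 without wild-type replicate 2, 0.24 without wild-type replicate 3, 0.27 without knockout replicate 3 and 0.85 without both replicates 2. Ntn1, the classic secreted netrin, was low, with 0.780 to 35.6 normalized counts in the wild type and 2.94 to 117 in the knockout, and Ntn5 did not pass 15.1 in any library.

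Among the Eph receptors, Ephb1, a receptor of ephrin-B ligands (chr9:101922128-102354693, minus strand), had 3885, 5423, 3996 and 3268 normalized counts in wild-type replicates 1 to 4 and 2707, 3389, 2382 and 2921 in knockout replicates 1 to 4. The groups overlapped by a single pair, knockout replicate 2 being above wild-type replicate 4. The log2 difference was -0.53 (SE 0.18, 95% interval -0.92 to -0.13, limma, adjusted p = 0.895). Ephb4, the receptor of ephrin-B2 in veins, had 984, 1911, 1494 and 1077 normalized counts in the wild type and 1464, 1930.2, 1981 and 1679 in the knockout. Its log2 difference was 0.41 (SE 0.22, 95% interval -0.08 to 0.90), with all 4 knockout libraries above the wild-type mean of 1366 but not above wild-type replicate 2, and it was 0.27 without wild-type replicate 1.

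EphA receptors gave 0 members at an unadjusted p under 0.05. Epha4, which can bind ephrins of both classes, had 2983 ± 528 normalized counts in the wild type and 2704 ± 51.2 in the knockout, and Epha7 had 2443 ± 556 and 2237 ± 347. Epha6 had 76.0, 131, 121 and 262 normalized counts in wild-type replicates 1 to 4 and 278, 93.2, 376 and 269 in knockout replicates 1 to 4. Knockout replicate 2 lay among the wild-type libraries and the other knockout libraries above them, for a log2 difference of 0.76 (SE 0.48, 95% interval -0.31 to 1.83). It was 0.49 without wild-type replicate 1 and 1.18 without knockout replicate 2 or without both replicates 2. Epha8 was at 0 in wild-type replicates 1, 2 and 4 and in knockout replicate 2, so no fold is given.

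Among the ephrins, Efna4, a ligand anchored to the membrane by a lipid, had 739, 528, 497 and 703 normalized counts in wild-type replicates 1 to 4 and 338, 499, 403 and 509 in knockout replicates 1 to 4. Wild-type replicate 3 was below knockout replicates 2 and 4, so the genotypes overlapped. Efna4 had a log2 difference of -0.49 (SE 0.22, limma, adjusted p = 0.895), and its unadjusted p stayed under 0.05 in 4 of the 8 fits that left out 1 library. Efna3, its relative, had 551, 743, 448 and 534 normalized counts in the wild type and 677, 763, 965 and 658 in the knockout. The difference of Efna3 had the opposite sign, 0.44 (SE 0.21, 95% interval -0.03 to 0.90), with wild-type replicate 2 inside the knockout range. Efna5 (2764 ± 1060.4 and 2342 ± 204 normalized counts) and Efna1 (1200.1 ± 367 and 1039 ± 117) had the highest counts of this class.

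Of the ephrin-B ligands, Efnb2 had 2149 ± 757 and 2353 ± 344 normalized counts and Efnb1 had 773 ± 193 and 745 ± 99.7. Efnb3 had 209, 278, 256 and 48.8 normalized counts in wild-type replicates 1 to 4 and 45.3, 181, 52.3 and 194 in knockout replicates 1 to 4. A low value occurred in both genotypes, and the log2 difference was -0.77 (SE 0.66, 95% interval -2.22 to 0.67). It was -1.35 without wild-type replicate 4, -0.42 without knockout replicate 1 and -0.49 without knockout replicate 3.

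**Figure D3:**
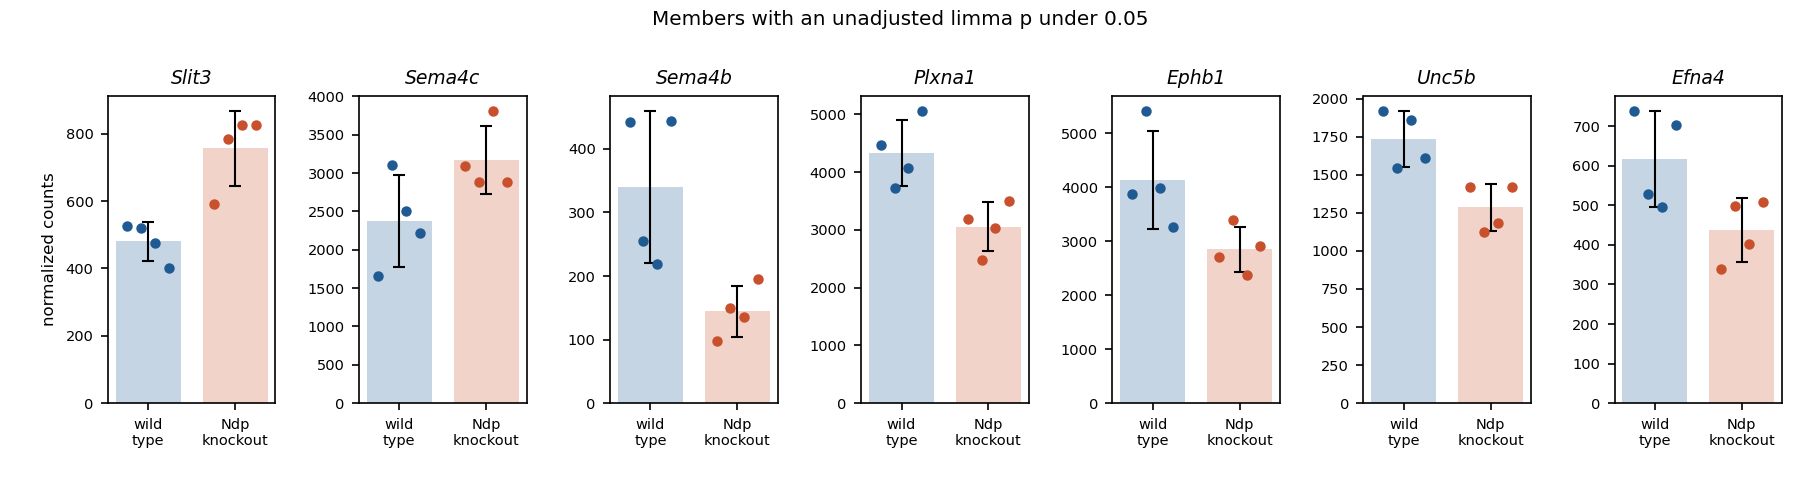
Normalized counts of the 7 members with an unadjusted limma p under 0.05, 1 point per library, bars for the mean of 4 libraries and error bars for the SD; each vertical axis is linear and starts at 0. Slit3 is higher in all knockout libraries, Sema4b, Plxna1 and Unc5b are lower in all, and the points of Sema4c, Ephb1 and Efna4 overlap between genotypes.

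Because the library kit keeps no strand information, reads from a member and from an overlapping gene of the opposite strand cannot be told apart. Among the members at an unadjusted p under 0.05, exons of an opposite-strand gene covered 10.7% of the exon bases of Plxna1. They covered 10.5% of Efna4, 7.27% of Sema4c and 2.17% of Ephb1. Those partners were low where they had rows, at most 14.0, 22.8, 167 and 26.4 normalized counts in any library. Of the other members, Ntn5 (23.4%) and Efna3 (14.1%) had larger overlaps, with partners at up to 50.6 and 5.41 normalized counts. The partner of Epha1, Zyx, covered 6.01% of its exon bases and was high, at 2873 to 4623 normalized counts.

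The wild-type libraries differed among themselves more than the knockout libraries did, over the whole table and not in these genes alone. On the log2 scale the SD was larger in the wild type for 47 of the 63 members (74.6%), near the 70.5% of all genes. The median log2 deviation of the 63 members from each gene's mean was -0.13, 0.28, 0.15 and -0.40 in wild-type replicates 1 to 4, and between -0.00 and 0.13 in the knockout replicates. Wild-type replicates 2 and 3 were both above 1 and 4 for 29 of the 63 members (46.0%), beside 24.1% of all genes, and both below for 6 members (9.52%), beside 23.0%. Sema4b, Plxna1 and Efna4 were among these 6. This grouping was seen in the values first and is given as a description.

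Exon length moved with this grouping of the wild-type libraries, and so did the hair cell markers and the number of reads. The 10 hair cell markers summed to 188871, 224741, 265322 and 171505 normalized counts in wild-type replicates 1 to 4. Those libraries held 37494307, 44149341, 48329827 and 35077950 reads. The part of each in the grouping was not tested. The median exon length was 7002 bases for the tested members and 3839 for all tested genes. Genes with exon lengths under 1500 bases had median deviations of 0.15, -0.38, -0.23 and 0.53 in wild-type replicates 1 to 4, and genes of 6000 bases or more had -0.10, 0.12, 0.15 and -0.21. With a trend on exon length removed from each library, an alternative chosen after these values were seen, the same 7 members had an unadjusted p under 0.05. Under it Slit3 no longer separated the genotypes, so that 0 members were higher in every knockout library (1.52% of all genes), and 5 in place of 3 were lower in every one (1.75% of all genes). The part of length in any single difference was not tested.

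**Figure D4:**
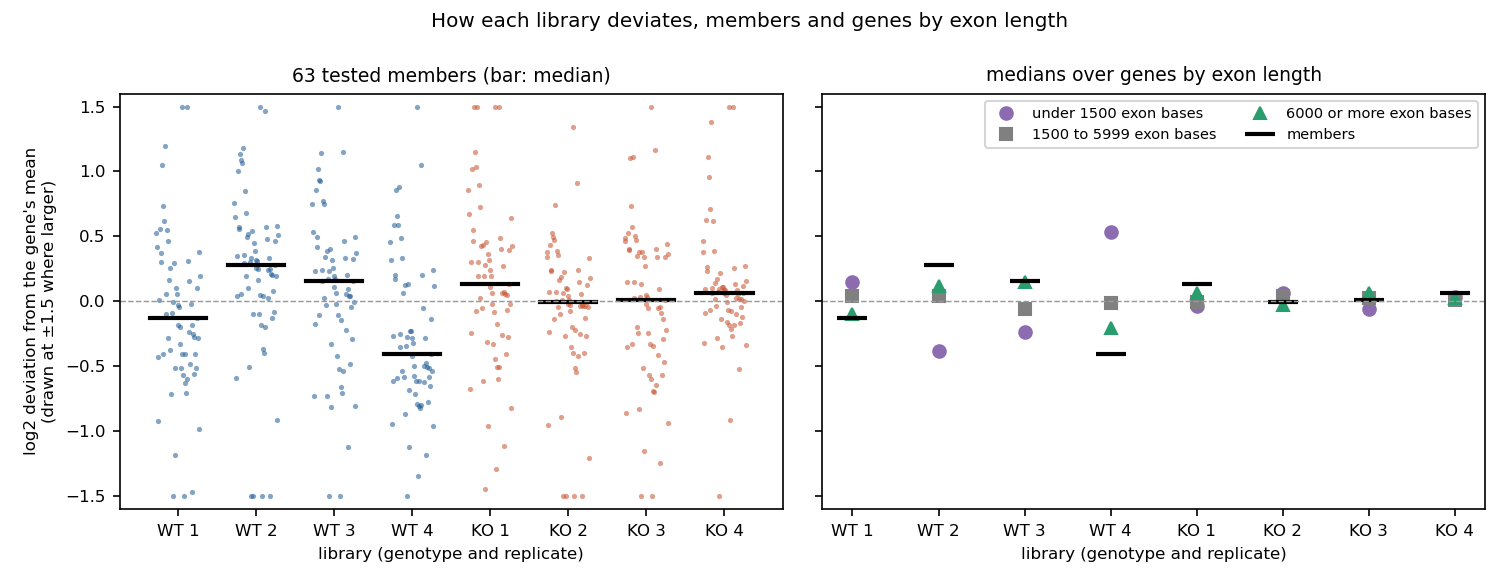
Left, log2 deviation of each of the 63 tested members from its mean over libraries, with the median as a bar; right, the median deviation of genes by exon length, for the same libraries. The members' medians have the same sign in every library as those of genes with exons of 6000 bases or more, which include 34 members. They reach 0.28 and -0.40 in wild-type replicates 2 and 4, where those of the long genes reach 0.12 and -0.21. In the wild-type libraries genes under 1500 bases lie on the opposite side.

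Single libraries changed how many members stood on the higher side. Without wild-type replicate 2, which was high for many of these genes, 10 members were higher in the knockout at an unadjusted limma p under 0.05, where 5.89% of all genes were. Wild-type replicate 2 and knockout replicate 2 carry the same date in their titles, the only date found in both genotypes. Without both, 14 members were higher at that threshold, where 5.67% of all genes were, among them Nrp1, Nrp2, Ntn4, Plxnb3, Sema4c, Sema6b and Slit3. Every knockout library was then above every wild-type library for 9 members, where 7.71% of all genes were, and below for 5, where 7.14% were. limma called 0 members at an adjusted p under 0.05 in either fit. Between the 2 libraries of that date alone, a single library per genotype with no test, the members' median log2 difference was -0.36.

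The inside of the pathway was read from a list of 76 genes that act below these receptors, such as adaptors, exchange factors and kinases of the actin skeleton. Of 75 tested, 44 had positive and 31 negative differences with a median of 0.07, limma called 0, and 3 were higher and 2 lower at an unadjusted p under 0.05. These counts were near the shares over all genes, 3.1% higher and 2.47% lower. The lower pair was Arhgef12, an exchange factor bound by B-type plexins, and Srgap3, a Slit-Robo GTPase-activating protein. Arhgef12 had 820.4, 829, 739 and 807 normalized counts in wild-type replicates 1 to 4 and 505, 534, 512 and 681 in knockout replicates 1 to 4. Srgap3 had 1161, 994, 1405 and 1475 in the wild type and 929.9, 921, 849 and 943 in the knockout. Neither overlapped between genotypes, with log2 differences of -0.53 (SE 0.17) and -0.45 (SE 0.17) and limma adjusted p-values of 0.895. In the whole list, every knockout library was below every wild-type library for 3 genes (1.58% of all genes), Rock1 among them. Every knockout library was above for 1 gene, Vav2 (1.46% of all genes).

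On the higher side, Farp2, an exchange factor bound by class A plexins, had 1344 ± 410.0 normalized counts in the wild type and 1859.9 ± 181 in the knockout, a log2 difference of 0.52 (SE 0.22), or 0.31 without wild-type replicate 4. Ablim3, an actin-binding LIM protein, had 3327 ± 731 and 4320.0 ± 455, a log2 difference of 0.40 (SE 0.17). Both overlapped between genotypes, as did the third gene higher at an unadjusted p under 0.05, Chn1, with a log2 difference of 0.47 (SE 0.21).

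A second list held 48 guidance genes of other families, of which 44 were tested. Of these 23 had positive and 21 negative differences with a median of 0.02, limma called 0, and 0 were higher and 1 lower at an unadjusted p under 0.05, no more than the shares of 3.1% and 2.47% over all genes. The lower gene was Cxcl12, a chemokine that guides migrating cells, with 1444, 1534, 1345 and 843 normalized counts in wild-type replicates 1 to 4 and 691, 994, 271 and 1027 in knockout replicates 1 to 4. These values overlapped, and the log2 difference was -0.93 (SE 0.39), or -0.50 without knockout replicate 3, the lowest library. Lingo1, a co-receptor of the Nogo receptor, had 89.5 ± 55.8 and 249 ± 181 normalized counts, and Tenm2, a teneurin, had 428 ± 113 and 302 ± 91.1. Rtn4, the Nogo gene, had 2054 ± 368 and 2511 ± 79.2 and was the only gene of this list whose genotypes did not overlap. It was on the higher side, where 1.46% of all genes did not overlap. The log2 difference of Rtn4 was 0.31 (SE 0.16), or 0.17 without wild-type replicate 4. edgeR and DESeq2 called 0 genes of either list at an adjusted p under 0.05.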

How the data were processed

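RNA of sorted cochlear hair cells was measured in 4 wild-type and 4 Ndp knockout libraries, made with SMART-Seq v4 and Nextera XT per the labels' protocols. The authors deposited 1 table whose signal columns hold normalized counts, in which each library's reads share 1 divisor. It also holds the authors' own log2 fold changes and p-values, per the file headers. Per the submitters' processing notes, DESeq2 1.26.0, Salmon 0.14.2, bcl2fastq 2.20 and the build mm10 were used, in roles not given. Whole reads were recovered from the steps of each column: 100% of 202744 values were whole within a relative tolerance of 1e-06. They may be counted reads or rounded estimates. A floor of 3 reads was worth 2.34 to 3.49 normalized counts and covers counting error only.

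The main test was limma 3.58.1 (R 4.3.3) with an intensity trend on log2(normalized count + 1), two-sided, with Benjamini-Hochberg adjustment over the 18203 genes with at least 10 normalized counts in at least 4 libraries. Adding 1 understates the difference of low genes. SDs are of normalized counts. edgeR 4.0.16 and DESeq2 1.42.0 on the recovered reads, other pseudocounts, filters and scalings, and fits without single libraries were alternatives. The models were tried on simulated data. Exon lengths and overlaps came from GENCODE M21, and promoters from RefSeq on GRCm38.p6. Replicate numbers follow accession order and pair nothing.

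The members and the gene and marker lists were chosen with earlier results of these data known. Named are, per family, the 2 tested members with the smallest p and the 2 with the highest mean, every member at an unadjusted p under 0.05 or without overlap between genotypes, members too low to test, and up to 4 genes of each pathway list with the smallest p. Other members and a few other pathway genes were named after their values were seen. Marker lists of 7 cell types were summed per library.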

Additional observations from a re-analysis of the deposited data

Results flagged for a closer look

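In 4 of the 126 groups of 4 libraries examined (63 members in each genotype, 3.17%), a single library stood apart from the other libraries by a gap that took up nearly the whole range of the group, past Dixon's critical value, which chance passes in about 1 in 20 groups. Sema4a had 256.5 normalized counts in wild-type replicate 2, with 98.2 to 116 in the other wild-type libraries. Plxnb3 had 869.9 in wild-type replicate 2, with 179 to 249 in the others. Epha8 had 53.0 in wild-type replicate 3 and was at 0 in the other wild-type libraries. Dcc had 428 in knockout replicate 1, with 2.71 to 14.3 in the other knockout libraries.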

How the results depend on the processing

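Across 17 alternatives with a test, limma, edgeR or DESeq2 called 0 members, and the sign was kept in all 442 values of the 18 members and 8 other genes followed. Sema4b, Slit3, Plxna1 and Ephb1 had an unadjusted p under 0.05 in each of the 17. Members higher at that threshold, 2 in the main fit, were 1 with edgeR (2.21% of all genes), 14 without both libraries of the shared title date (5.67%) and 1 to 10 when 1 library was left out (1.83% to 5.89%). Non-overlapping members on the higher side, 1 in the main fit, were 9 without both libraries of that date (7.71% of all genes), 0 with the length trend removed (1.52%) and 1 to 6 when 1 library was left out (2.18% to 4.70%). On the lower side, 3 became 5 without both libraries of that date (7.14%), 5 with the length trend removed (1.75%) and 3 to 6 when 1 library was left out (2.16% to 4.65%). Fewer libraries separate more often for all genes. In the pair of that date alone the members' median was -0.36, and signs turned for Sema4c (-0.10), Sema6b (-0.010), Nrp2 (-0.38), Plxnb3 (-0.90), Epha6 (-0.49), Ntn4 (-0.79), Farp2 (-0.082) and Ablim3 (-0.16). The cause was not tested. Replicate numbers pair no libraries. No paired analysis was possible because only 1 title date occurs in both genotypes. Few reads limit Epha8, Dcc, Ntn1 and Ntn5.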
